A study of Homo sapiens with 9 samples.

Results

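Imprinted genes were examined in TC-32, an established human Ewing sarcoma cell line driven by the EWSR1::FLI1 fusion. The set was chosen by gene symbol: H19, MEG3, DLK1, PEG3, PEG10, SGCE, MEST, CDKN1C, NDN and PLAGL1. Each of these 10 symbols matched 1 row of the 58381 genes in the deposited tables. The study compared 3 groups of 3 RNA-seq libraries each: RFP, cells with the lentiviral pLOC vector carrying a red fluorescent protein; ETS1-Low, cells with pLOC carrying a synthetic human ETS1 cDNA that reached a lower ETS1 level; and ETS1-High, the same construct at an ETS1 level matched to that seen when EWSR1::FLI1 is depleted. All groups are TC-32, keep the fusion and were transduced; per the labels' protocols, transduced cells were selected with puromycin and sorted as single cells. The series' text calls the ETS1-High cells clones grown from single cells; the number of clones per group is not given in the sources used here. A difference between clones and an effect of ETS1 therefore cannot be told apart, and p-values measure only the spread between the libraries of a group. The study asked which genes ETS1 regulates while the fusion is present.

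Imprinted genes are expressed mainly from the allele of 1 parent, according to DNA methylation marks set in the germ line and kept in somatic cells. They lie in clusters that share control regions, many act on fetal growth, and growth-restraining members such as CDKN1C, PLAGL1, H19 and MEG3 are often silenced or altered in tumours. Gene-level counts do not separate the parental alleles, so the values below are total transcript levels and say nothing about which allele was read. In a bulk library, fewer cells that express a gene and less RNA per cell cannot be told apart.

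The sequences at the starts of the genes with the largest differences are shown first. RefSeq promoter windows on GRCh38.p14, from 250 bases before to 50 bases after a start, matched 5 of the 10 genes (PLAGL1, MEST, H19, MEG3 and NDN) with 15 windows, of which 4 are printed here. PLAGL1 has several starts, and its window at chr6:144008210-144008509 is also the RefSeq window of HYMAI, the noncoding RNA that shares the imprinted PLAGL1 promoter. Capitals mark TGCCGC on either strand, the hexamer that ZFP57, a zinc finger protein that protects imprints, binds when it is methylated.
PLAGL1 and HYMAI, chr6:144008210-144008509, minus strand: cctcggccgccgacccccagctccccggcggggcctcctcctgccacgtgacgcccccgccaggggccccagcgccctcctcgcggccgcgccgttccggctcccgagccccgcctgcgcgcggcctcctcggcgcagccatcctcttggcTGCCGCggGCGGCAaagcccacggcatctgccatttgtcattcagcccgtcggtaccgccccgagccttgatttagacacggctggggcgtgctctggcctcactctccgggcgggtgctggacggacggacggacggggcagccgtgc
PLAGL1 farthest upstream start, chr6:144064550-144064849, minus strand: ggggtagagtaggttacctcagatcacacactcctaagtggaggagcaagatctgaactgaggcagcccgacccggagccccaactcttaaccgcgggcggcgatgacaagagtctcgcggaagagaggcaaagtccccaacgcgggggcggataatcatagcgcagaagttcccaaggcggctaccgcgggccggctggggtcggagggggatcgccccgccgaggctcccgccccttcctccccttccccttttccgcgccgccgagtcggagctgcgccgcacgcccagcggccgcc
MEG3, chr14:100825858-100826157, plus strand: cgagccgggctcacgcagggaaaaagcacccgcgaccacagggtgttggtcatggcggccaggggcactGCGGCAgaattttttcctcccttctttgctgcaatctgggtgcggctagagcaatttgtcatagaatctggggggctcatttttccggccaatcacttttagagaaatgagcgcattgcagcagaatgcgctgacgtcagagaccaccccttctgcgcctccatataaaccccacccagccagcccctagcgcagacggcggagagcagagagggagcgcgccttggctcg
H19, chr11:2001217-2001516, minus strand: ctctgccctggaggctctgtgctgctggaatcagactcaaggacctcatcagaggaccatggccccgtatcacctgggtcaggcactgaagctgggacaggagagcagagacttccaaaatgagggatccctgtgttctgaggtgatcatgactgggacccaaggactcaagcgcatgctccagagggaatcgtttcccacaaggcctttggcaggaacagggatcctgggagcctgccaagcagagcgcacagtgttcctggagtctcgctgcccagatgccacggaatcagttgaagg
The window shared by PLAGL1 and HYMAI held 2 TGCCGC matches and 39 CpG dinucleotides, more CpG than 91.3% of the 35116 human promoter windows of the same length, whose median was 14. The farthest upstream PLAGL1 window had 31 CpG and 0 matches, the printed MEG3 window 19 CpG and 1 match, and the H19 window 6 CpG and 0 matches. The other PLAGL1 windows had 2 or 3 CpG and 0 matches. MEST, which changed by less than 2-fold, had windows with 0 to 3 matches and 13 to 25 CpG. The NDN window had 35 CpG and 1 match. TGCCGC stood in 16.7% of all windows. Neither CCGGAAGT, a consensus of ETS factors, nor GGAAGGAA, a pair of the GGAA units that EWSR1::FLI1 binds in repeats, occurred on either strand in the 15 windows; they stood in 4.14% and 3.67% of all windows. Matches that overlapped were counted separately. A match is a description of letters and not of binding.

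The library totals ran from 39484704 to 46654734 expected counts, which are RSEM estimates that divide reads shared between genes. Levels are CPM, counts scaled to a common library size after TMM normalisation (which corrects for composition), and FPKM where genes are set side by side, since FPKM is also scaled to length. ETS1 itself had 1.81, 2.03 and 2.15 CPM in the RFP libraries, 10.6, 10.9 and 10.3 CPM in ETS1-Low and 19.4, 18.2 and 19.7 CPM in ETS1-High, so each library followed its label. These counts include any reads from the vector copy of ETS1. Ewing sarcoma markers were present: 7 of the 8 listed (such as CD99, NKX2-2 and NR0B1) were at 1 CPM or more in every library. GLI1, the other marker, reached 1 CPM in each library of the RFP group only. The summed level of the 8 ranged over 759 to 774, 1004 to 1011 and 1006 to 1059 CPM for RFP, ETS1-Low and ETS1-High. Of 8 markers of other cell types, CD3E and MYOD1 had at most 1 count in a library, and the summed level of the 8 was 2.28 to 2.68, 3.78 to 4.47 and 5.22 to 5.94 CPM, most of it PECAM1 (78 to 88, 143 to 164 and 206 to 244 counts). MYOG, a muscle marker of the same list, ran the other way, with 11, 13 and 18 counts in RFP and 0 in the 6 ETS1 libraries. Their part in the results below was not tested.

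Of the 10 genes, 7 passed the filter on low counts and were tested with edgeR among 17235 genes. DLK1, PEG3 and NDN did not pass. A gene was called at a Benjamini-Hochberg adjusted p under 0.05. In ETS1-High versus RFP, H19 was called higher and PLAGL1, MEG3, CDKN1C, MEST and SGCE lower, where 74.2% of all genes tested were called (37.0% higher, 37.2% lower). In ETS1-Low versus RFP, PEG10 was called higher and the other 6 lower (H19 among them, on few counts), where again 74.1% of all genes were called (38.0% higher, 36.2% lower). In ETS1-High versus ETS1-Low, 5 of the 7 were called higher (H19, PLAGL1, CDKN1C, SGCE and MEST) and 2 lower (MEG3 and PEG10), against 59.2% of all genes (29.9% higher, 29.3% lower). At least 2-fold, H19 rose and PLAGL1 and MEG3 fell in ETS1-High versus RFP (9.64% and 11.4% of all genes did so, 21.0% in all). PLAGL1, MEG3, H19 and CDKN1C fell at least 2-fold in ETS1-Low versus RFP and none of the 7 rose by that much (12.2% and 8.47%, 20.6% in all). H19, PLAGL1 and CDKN1C were at least 2-fold higher and MEG3 lower in ETS1-High versus ETS1-Low (6.05% and 3.69%, 9.74% in all). With most genes called in each comparison, a call alone says little, and the sizes of the changes are given gene by gene below. The median absolute log2 fold change of the 7 was 0.34, 1.63 and 1.29 in these comparisons, against 0.40, 0.41 and 0.25 over all genes tested, as a description only, since H19 passed the filter through its ETS1-High counts. The comparisons versus RFP share the RFP libraries, and both comparisons of ETS1-Low share its libraries, so their values are set side by side and not counted as independent.

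**Figure D1:**
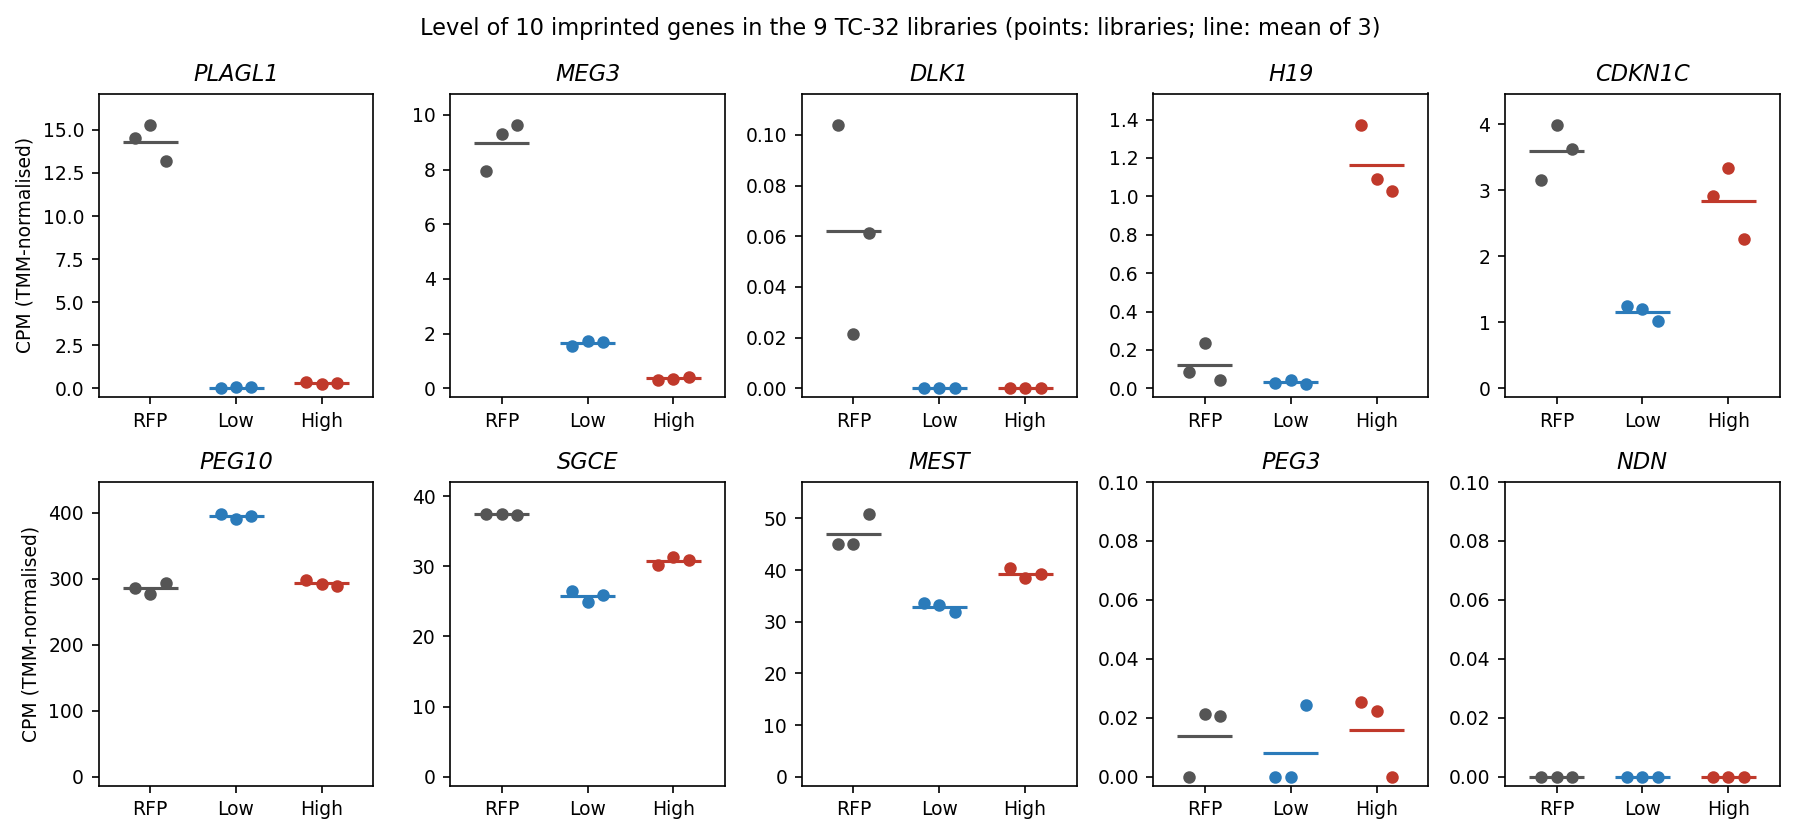
Level of each of the 10 imprinted genes in CPM (linear axis from 0, separate scale per gene) in the RFP, ETS1-Low and ETS1-High libraries; points are libraries and lines are means of 3. PLAGL1 stands at 13.2 to 15.3 CPM in RFP and at 0.381 CPM or less in both ETS1 groups, and H19 reaches 1.03 to 1.37 CPM in ETS1-High only.

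Between genes, levels were compared by FPKM, which takes length into account. In the RFP libraries the order was PEG10 (98.3 to 100.83 FPKM), SGCE (24.96 to 25.32), MEST (21.03 to 23.87), PLAGL1 (4.94 to 5.67), MEG3 (2.89 to 3.56) and CDKN1C (2.38 to 3.14), and only the neighbours MEG3 and CDKN1C overlapped. H19 and DLK1 followed at 0.05 to 0.19 and 0.02 to 0.12 FPKM, which overlapped too, and PEG3 and NDN were listed at 0. In ETS1-Low the order was PEG10 (127.68 to 135.48 FPKM), SGCE (15.72 to 16.93), MEST (14.14 to 15.68), CDKN1C (0.78 to 0.88) and MEG3 (0.48 to 0.85), with PLAGL1 at 0 to 0.13 and H19 at 0.02 to 0.06. CDKN1C and MEG3 overlapped there, as did PLAGL1 and H19. In ETS1-High it was PEG10 (96.48 to 100.43 FPKM), SGCE (19.78 to 20.39), MEST (18.04 to 20.81), CDKN1C (1.68 to 2.54), H19 (0.6 to 0.81), MEG3 (0.12 to 0.24) and PLAGL1 (0.08 to 0.11). SGCE and MEST overlapped in ETS1-High. The first 3 places were thus held by the same genes in each group. PLAGL1 went from the fourth place in RFP to 0.13 FPKM or less in both ETS1 groups, whose PLAGL1 ranges overlapped. In ETS1-High, H19 passed MEG3.

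An on or off state was defined for each group: off where each of the 3 libraries had at most 3 counts, on where each had at least 1 CPM (between 37.8 and 48.8 counts here), and low otherwise. By this rule 2 of the 10 genes were off in 1 group and on in another, PLAGL1 and H19, where 177 of 17235 genes tested (1.03%) did so. PLAGL1 was on in RFP and off in ETS1-Low, a pattern of 0.603% of the genes tested. H19 was off in ETS1-Low and on in ETS1-High, a pattern of 0.145%. PEG10, SGCE, MEST and CDKN1C were on in each group, PEG3 and NDN were off in each group, MEG3 went from on in RFP and ETS1-Low to low in ETS1-High, and DLK1 from low in RFP to off. With the on limit set at 1 FPKM in place of 1 CPM, PLAGL1 alone met the rule.

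PLAGL1 (ENSG00000118495.18; chromosome 6, 143940300 to 144064599 of GRCh38, minus strand; a protein-coding gene) encodes a zinc finger transcription factor expressed from the paternal allele that restrains cell growth and regulates other imprinted genes. Its rounded counts were 698, 716 and 643 in the RFP libraries, 0, 3 and 3 in ETS1-Low and 15, 11 and 14 in ETS1-High. That is 14.5, 15.3 and 13.2 CPM in RFP, against 0 to 0.0732 CPM in ETS1-Low and 0.245 to 0.381 CPM in ETS1-High. The transcript was present in the RFP libraries, close to the floor in ETS1-Low and only slightly above it in ETS1-High. In CPM, no libraries of different groups overlapped. In FPKM, ETS1-Low (0, 0.03 and 0.13) and ETS1-High (0.09, 0.11 and 0.08) overlapped. Its log2 fold change was -8.12 (± 0.21 SE, edgeR adjusted p 1.30e-36) in ETS1-Low versus RFP and -5.52 (± 0.15 SE, edgeR adjusted p 2.11e-35) in ETS1-High versus RFP. From summed counts the RFP level was 295-fold that of ETS1-Low, with an exact 95% interval of 135 to 805 for counting error only. ETS1-High lay above ETS1-Low by 2.61 (± 0.49 SE, edgeR adjusted p 5.64e-06), a difference between 40 and 6 summed counts that limma on FPKM values did not call (0.06 on the log2(FPKM + 1) scale, adjusted p 0.627).

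The nearest genes around PLAGL1 did not show a change of that size. The closest tested genes on each side, LTV1 (a ribosome assembly factor) and SF3B5 (a splicing factor subunit), changed by -0.27 and -0.22 in ETS1-Low versus RFP and by -0.27 and 0.09 in ETS1-High versus RFP. The median of the 27 tested genes within 5 Mb was -0.44 and -0.04 in these comparisons. HYMAI, whose start is in the window printed above, was below the filter and was looked at after its values were seen. It had 5, 2 and 6 counts in RFP and 0 in each of the 6 ETS1 libraries. The expected counts of PLAGL1 and of HYMAI were not whole in 2 libraries each, so reads there were divided between genes. The 2 genes outside the lists nearest to PLAGL1 in pattern, by Euclidean distance over the 9 libraries of centred log2 CPM, were LIMCH1 (distance 0.964; 29.7, 0.193 and 0.799 CPM for RFP, ETS1-Low and ETS1-High, respectively) and KIAA0408 (distance 1.11; 20.9, 0.121 and 0.703 CPM).

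MEG3 and DLK1 are neighbours at chromosome 14q32; the DLK1 start is 53.7 kb from the first MEG3 start in GENCODE v44 and 100.4 kb from the RefSeq start in the window printed above. They are expressed from opposite alleles. MEG3 (ENSG00000214548.15; chromosome 14, 100779410 to 100861031, plus strand) is a maternally expressed long noncoding RNA with growth-suppressing activity. It had 383, 436 and 470 counts in RFP, 59, 78 and 70 in ETS1-Low and 12, 16 and 19 in ETS1-High. The means were 8.96 ± 0.88, 1.67 ± 0.094 and 0.362 ± 0.061 CPM (SD, n = 3), a stepwise order RFP, ETS1-Low, ETS1-High without overlap. Its log2 fold change was -2.42 (± 0.12 SE, edgeR adjusted p 1.28e-24) for ETS1-Low versus RFP. For ETS1-High it was -4.61 (± 0.15 SE, edgeR adjusted p 1.51e-31) versus RFP and -2.19 (± 0.20 SE, edgeR adjusted p 1.18e-13) versus ETS1-Low. Among the 7 tested genes, MEG3 alone ran in the order of the ETS1 level with a call at each step.

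DLK1 (ENSG00000185559.13; chromosome 14, 100725705 to 100738224, plus strand), the paternally expressed Notch-like ligand of the cluster, had 5, 1 and 3 counts in RFP and 0 in the 6 ETS1 libraries. A count of 0 allows up to 0.0667 to 0.0794 CPM per library here. The RFP mean of 0.0622 CPM was below that, so no fold is read from these counts. Without the filter on low counts DLK1 was called lower in both ETS1 groups (edgeR adjusted p 0.0258 in ETS1-Low and 0.0234 in ETS1-High). That call rests on 9 counts in all in RFP, and its fitted fold depends on the prior count. MEG8, another maternal noncoding RNA of the cluster named after its values were seen, had 5, 8 and 4 counts in RFP, 1, 2 and 2 in ETS1-Low and 0 in ETS1-High, below the filter. RTL1, MEG9 and DIO3 of this cluster had at most 4 counts in a library. BEGAIN, the nearest tested gene on the DLK1 side, was also low and fell (0.363, 0.19 and 0.124 CPM; log2 fold changes of -0.90 and -1.52 in ETS1-Low and ETS1-High versus RFP, adjusted p 0.0496 and 0.00231, edgeR). PPP2R5C, a phosphatase subunit on the far side, changed by -0.15 and 0.07. The median of the 82 tested genes within 5 Mb of MEG3 was -0.10 and -0.11.

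Chromosome 11p15.5 holds the IGF2-H19 and the KCNQ1-CDKN1C imprinted domains. H19 (ENSG00000130600.18; chromosome 11, 1995166 to 2004552, minus strand) is a maternally expressed long noncoding RNA that is abundant in the fetus. It had 4, 11 and 2 counts in RFP, 1, 2 and 1 in ETS1-Low and 54, 49 and 46 in ETS1-High. ETS1-High therefore stood apart at 1.37, 1.09 and 1.03 CPM, while the other 6 libraries were at 0.235 CPM or less. H19 rose by 3.26 (± 0.38 SE, edgeR adjusted p 5.91e-11) in ETS1-High versus RFP and by 5.05 (± 0.50 SE, edgeR adjusted p 8.53e-13) in ETS1-High versus ETS1-Low. From summed counts (149 and 4) the latter was 35.7-fold, with an exact 95% interval of 13.7 to 133. H19 passed the filter through ETS1-High, the group in which it was high. The tests of ETS1-High versus RFP and versus ETS1-Low were thus made on a gene that had to be high there. Without RFP replicate 2, which held 11 of the 17 RFP counts, the value versus RFP was 4.16 (edgeR adjusted p 3.31e-11). In ETS1-Low versus RFP the log2 fold change was -1.79 (± 0.77 SE, edgeR adjusted p 0.0255), between groups that overlapped. H19 was tested there only because its ETS1-High counts passed the filter; in a fit of these 2 groups alone it was not tested. That call also rests on single libraries: without RFP replicate 2 the log2 fold change was -0.89 and the adjusted p 0.365, and the adjusted p was 0.0642 without ETS1-Low replicate 1 and 0.0719 without ETS1-Low replicate 3 (edgeR). The 2 genes outside the lists nearest to H19 in pattern were RET (distance 0.915; 0.692, 0.449 and 6.80 CPM for RFP, ETS1-Low and ETS1-High, respectively) and CLUL1 (distance 1.34; 0.0974, 0.0304 and 1.10 CPM).

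IGF2, the fetal growth factor expressed from the paternal allele of the same domain, starts 154 kb from H19. It had 4, 5 and 9 counts in RFP, 21, 14 and 21 in ETS1-Low and 4, 9 and 5 in ETS1-High. IGF2 was thus highest in ETS1-Low, where H19 had 4 counts in all, and it rose by 1.84 (± 0.44 SE, edgeR adjusted p 0.000171) in ETS1-Low versus RFP. It was lower at the high than at the low ETS1 level, with a log2 value of -1.69 (± 0.44 SE, edgeR adjusted p 0.000746), and ETS1-High and RFP overlapped (0.15, adjusted p 0.807, edgeR). All of these IGF2 levels were under 1 CPM, and IGF2 passed the filter only through ETS1-Low, the group in which it was high.

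CDKN1C (ENSG00000129757.13; chromosome 11, 2883213 to 2885775, minus strand) encodes p57, a maternally expressed inhibitor of cyclin-dependent kinases. It had 152, 187 and 177 counts in RFP, 47, 54 and 42 in ETS1-Low and 115, 150 and 101 in ETS1-High. ETS1-Low was the group that stood apart, at 1.16 ± 0.12 CPM, against 3.59 ± 0.42 CPM in RFP and 2.84 ± 0.54 CPM in ETS1-High (SD, n = 3). CDKN1C fell by 1.63 (± 0.16 SE, edgeR adjusted p 3.18e-13) in ETS1-Low versus RFP, and was higher at the high than at the low ETS1 level, by 1.29 (± 0.16 SE, edgeR adjusted p 1.73e-09). ETS1-High and RFP overlapped, with a log2 fold change of -0.34 (± 0.14 SE, edgeR adjusted p 0.0238). This last call was lost in 6 of 19 alternatives, among them the DESeq2 test (adjusted p 0.066). The others included edgeR fits without RFP replicate 2 (adjusted p 0.124), RFP replicate 3 (0.0547) or ETS1-High replicate 3 (0.231).

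KCNQ1OT1, the paternally expressed antisense RNA that represses CDKN1C on the paternal chromosome, moved the other way in ETS1-Low. It had 4.23 ± 0.34 CPM with RFP, 9.27 ± 0.56 CPM with ETS1-Low and 8.45 ± 0.53 CPM with ETS1-High (SD, n = 3), and rose by 1.14 and 1.00 versus RFP (edgeR adjusted p 9.67e-17 and 9.86e-15). In mean FPKM, KCNQ1OT1 was at 0.047, 0.097 and 0.093 for RFP, ETS1-Low and ETS1-High, against 2.71, 0.833 and 2.06 for CDKN1C. Whether the changes of KCNQ1OT1 and CDKN1C are linked was not tested. For ETS1-High versus ETS1-Low, KCNQ1OT1 had -0.13 (± 0.08 SE, edgeR adjusted p 0.155) with overlapping libraries, where CDKN1C had 1.29. Whether the counting used strand is not given in the sources used here, so sense and antisense reads may be mixed where such genes overlap. KCNQ1, which KCNQ1OT1 overlaps on the other strand, had 0 counts in each library. PHLDA2, a maternally expressed gene that limits placental growth, went in opposite directions, with 0.43 in ETS1-Low and -0.59 in ETS1-High (edgeR adjusted p 0.000791 and 4.37e-05). SLC22A18, its neighbour, rose by 0.50 and 0.27 (edgeR adjusted p 1.60e-06 and 0.00518). The 100 tested genes within 5 Mb of CDKN1C had medians of 0.41 in ETS1-Low and 0.43 in ETS1-High versus RFP, so CDKN1C went against its region: relative to those medians it changed by -2.05 and -0.77. Relative to the same medians, KCNQ1OT1 changed by 0.72 and 0.57, PHLDA2 by 0.01 and -1.02 and SLC22A18 by 0.08 and -0.16. H19 relative to its own region changed by -2.21 and 2.83. The first of these H19 values rests on few counts and on single libraries, as given above.

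**Figure D2:**
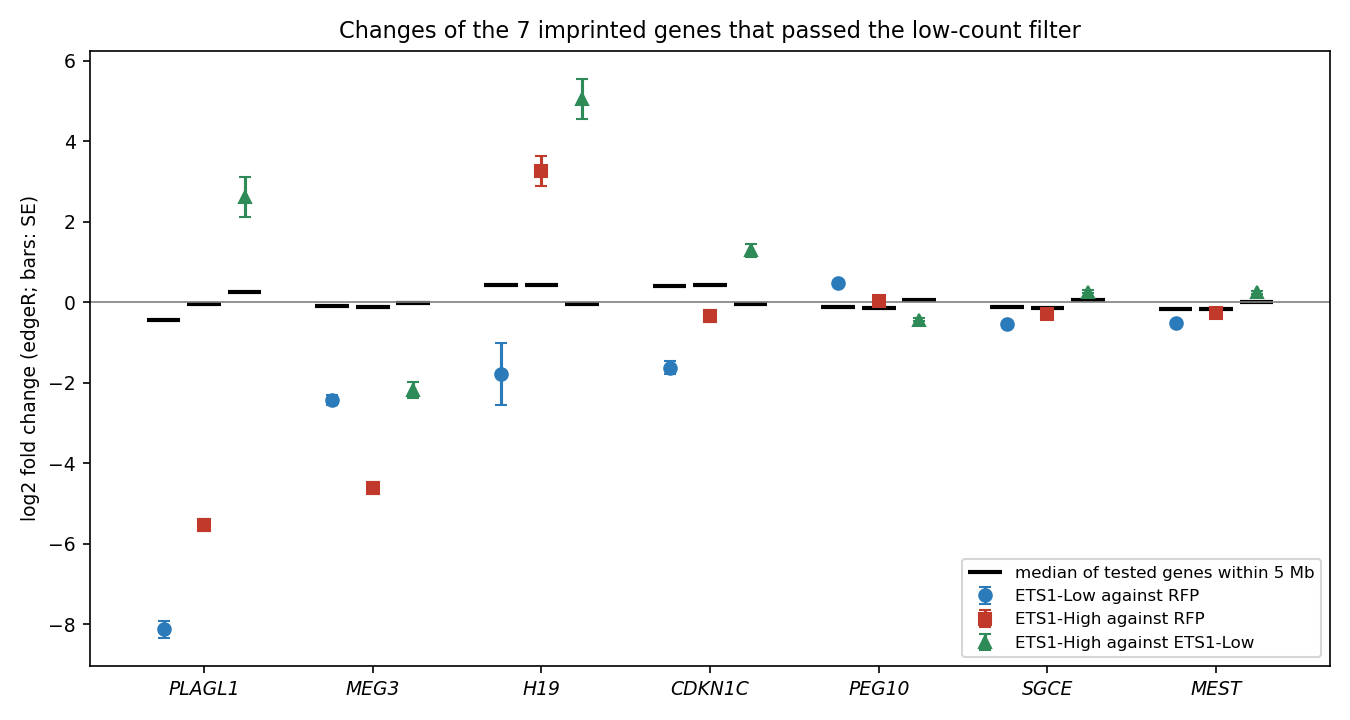
Log2 fold change of the 7 tested genes in the 3 comparisons (edgeR; bars are SE), with a black line for the median of the tested genes within 5 Mb. PLAGL1 and MEG3 lie far below their regional medians versus RFP, while PEG10, SGCE and MEST stay within 0.6 of 0.

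PEG10 and SGCE are read in opposite directions from starts 247 bases apart at chromosome 7q21, and both are expressed from the paternal allele. PEG10 (ENSG00000242265.5; chromosome 7, 94656325 to 94669695, plus strand) derives from a retrotransposon, is needed for the placenta and is often high in tumours. It was by far the most abundant of the 10 genes, at 99.2 ± 1.4 FPKM in RFP, 131 ± 4.2 FPKM in ETS1-Low and 98.2 ± 2.0 FPKM in ETS1-High (SD, n = 3). The CPM values were 287, 277 and 293 in RFP, 399, 391 and 395 in ETS1-Low and 299, 292 and 289 in ETS1-High. ETS1-Low stood above the other groups, which overlapped. PEG10 rose by 0.47 (± 0.03 SE, edgeR adjusted p 5.66e-20) in ETS1-Low versus RFP and was lower at the high than at the low ETS1 level, with a log2 value of -0.43 (± 0.03 SE, edgeR adjusted p 3.70e-18). In ETS1-High versus RFP it was 0.04 (± 0.03 SE, edgeR adjusted p 0.254), and this small value was -0.02 with upper-quartile scaling. In 5 libraries its expected count was not whole, so some of its reads were shared with other genes.

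SGCE (ENSG00000127990.16; chromosome 7, 94524204 to 94656572, minus strand), which encodes epsilon-sarcoglycan, a membrane protein mutated in myoclonus-dystonia, moved opposite to PEG10. It had 37.5, 37.5 and 37.3 CPM with RFP, 26.4, 25.0 and 25.9 CPM with ETS1-Low and 30.2, 31.3 and 30.9 CPM with ETS1-High. The groups did not overlap, and ETS1-Low was the lowest. SGCE fell by 0.54 (± 0.04 SE, edgeR adjusted p 1.89e-16) in ETS1-Low and by 0.28 (± 0.04 SE, edgeR adjusted p 3.10e-08) in ETS1-High versus RFP. It was higher at the high than at the low ETS1 level, by 0.26 (± 0.04 SE, edgeR adjusted p 9.77e-07).

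PPP1R9A, a neuronal actin-binding protein whose start is 251 kb from that of PEG10 and which is imprinted in some tissues, changed far more. It had 423, 435 and 458 counts in RFP, 5, 8 and 5 in ETS1-Low and 13, 4 and 15 in ETS1-High. The log2 fold changes of PPP1R9A were -5.95 and -5.19 versus RFP (edgeR adjusted p 5.09e-31 and 1.61e-30). PPP1R9A passed the filter on low counts only through RFP, the group in which it was high. TFPI2, a serine protease inhibitor on the other side of the cluster, rose by 1.29 and 0.91 (edgeR adjusted p 8.52e-16 and 1.35e-10). The median of the 65 tested genes within 5 Mb of PEG10 was -0.13 and -0.15 in ETS1-Low and ETS1-High versus RFP. In ETS1-Low, this 1 cluster thus held genes that rose (PEG10 and TFPI2), a gene that fell by less than 2-fold (SGCE) and a gene that fell almost to the floor (PPP1R9A).

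MEST (ENSG00000106484.15; chromosome 7, 130486171 to 130506465, plus strand) encodes a paternally expressed member of the alpha/beta hydrolase family, linked to fetal growth. It had 45.1, 45.1 and 50.9 CPM with RFP, 33.6, 33.3 and 31.9 CPM with ETS1-Low and 40.3, 38.4 and 39.2 CPM with ETS1-High. The order was the same as for SGCE, with RFP highest, ETS1-Low lowest and no overlap. MEST fell by 0.51 (± 0.04 SE, edgeR adjusted p 4.53e-15) in ETS1-Low and by 0.26 (± 0.04 SE, edgeR adjusted p 3.39e-07) in ETS1-High versus RFP, and ETS1-High lay above ETS1-Low by 0.25 (± 0.04 SE, edgeR adjusted p 2.30e-06). CEP41, a centrosomal protein gene 43.7 kb away, also fell, with log2 fold changes of -0.51 and -0.39 (edgeR adjusted p 1.86e-11 and 1.49e-08). COPG2 on the other side had 0.06 (edgeR adjusted p 0.206) and -0.16 (edgeR adjusted p 0.000544). MESTIT1, antisense to MEST, had at most 4 counts in a library, and MEST at least 1272. KLF14 of this cluster had at most 8. CPA4, also of this cluster and named after its values were seen, was below the filter. It had 0, 2 and 4 counts in RFP, 1, 1 and 3 in ETS1-Low and 15, 14 and 8 in ETS1-High. Without the filter CPA4 was called higher in ETS1-High, by 2.72 versus RFP and 2.75 versus ETS1-Low (edgeR adjusted p 0.000133 and 0.000316).

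PEG3 and NDN were at or near 0 in all libraries. PEG3 (ENSG00000198300.12; chromosome 19, 56810077 to 56840728, minus strand), a paternally expressed zinc finger gene, had 0 or 1 count in each of the 9 libraries. Its cluster neighbours ZIM2, MIMT1 and USP29 had 0 counts throughout. These 4 genes stayed at or near the floor, while the 193 tested genes within 5 Mb had medians of 0.31 in ETS1-Low and 0.40 in ETS1-High versus RFP. NDN (ENSG00000182636.5; chromosome 15, 23685400 to 23687305, minus strand), which encodes the growth suppressor necdin, had 0 counts in the 9 libraries, which allows up to 0.0615 to 0.0794 CPM per library.

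The rest of the Prader-Willi and Angelman region around NDN was not all at the floor. MAGEL2 and NPAP1, paternally expressed like NDN, had at most 1 count in a library. MKRN3, a paternally expressed inhibitor of puberty 122 kb from NDN, had 1, 1 and 0 counts in RFP, 75, 82 and 65 in ETS1-Low and 3, 2 and 0 in ETS1-High. It was thus off in RFP and on in ETS1-Low (0.0986% of all genes tested) and off in ETS1-High and on in ETS1-Low (0.0348%), the only gene among the 43 other listed imprinted genes with an off state and an on state. MKRN3 passed the filter on low counts only through ETS1-Low, so the test there, where it rose by 6.75 (± 0.50 SE, edgeR adjusted p 1.05e-17) versus RFP, was made on a gene that had to be high in that group. From summed counts, 222 in ETS1-Low against 2 in RFP, the ratio was 129 with an exact 95% interval of 35.3 to 1072. Against the 5 counts of ETS1-High it was 46.3, with an exact 95% interval of 19.5 to 144. The median of the 16 tested genes within 5 Mb was 0.11 in ETS1-Low and -0.39 in ETS1-High versus RFP.

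The transcripts from the SNRPN promoter fell together in both ETS1 groups. SNHG14, the long paternally expressed host RNA that runs antisense to UBE3A, went from 138 ± 3.4 CPM under RFP to 64.7 ± 1.2 CPM under ETS1-Low and 64.0 ± 0.38 CPM under ETS1-High (SD, n = 3). The log2 fold changes of SNHG14 were -1.09 and -1.11 (edgeR adjusted p 7.52e-34 and 3.25e-34), those of SNRPN, a splicing protein gene, -0.90 and -0.91, and those of SNURF -1.14 and -1.14. These 3 transcripts overlap, and their expected counts were not whole in 8 of the 9 libraries, so they are not independent. The median of the 25 tested genes within 5 Mb of SNRPN was 0.12 in ETS1-Low and -0.32 in ETS1-High, so in ETS1-High the surrounding genes were lower as well, by less. UBE3A, the Angelman ubiquitin ligase, changed by 0.12 and -0.17 (edgeR adjusted p 0.000325 and 3.15e-06). ATP10A, a maternally expressed lipid flippase gene in some tissues, had 38, 22 and 42 counts in RFP and 0 in the 6 ETS1 libraries. Against a floor of 3 counts per library it was at least 9.67-fold lower for ETS1-Low and at least 10.1-fold lower for ETS1-High. ATP10A passed the filter on low counts only through RFP, the group in which it was high.

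**Figure D3:**
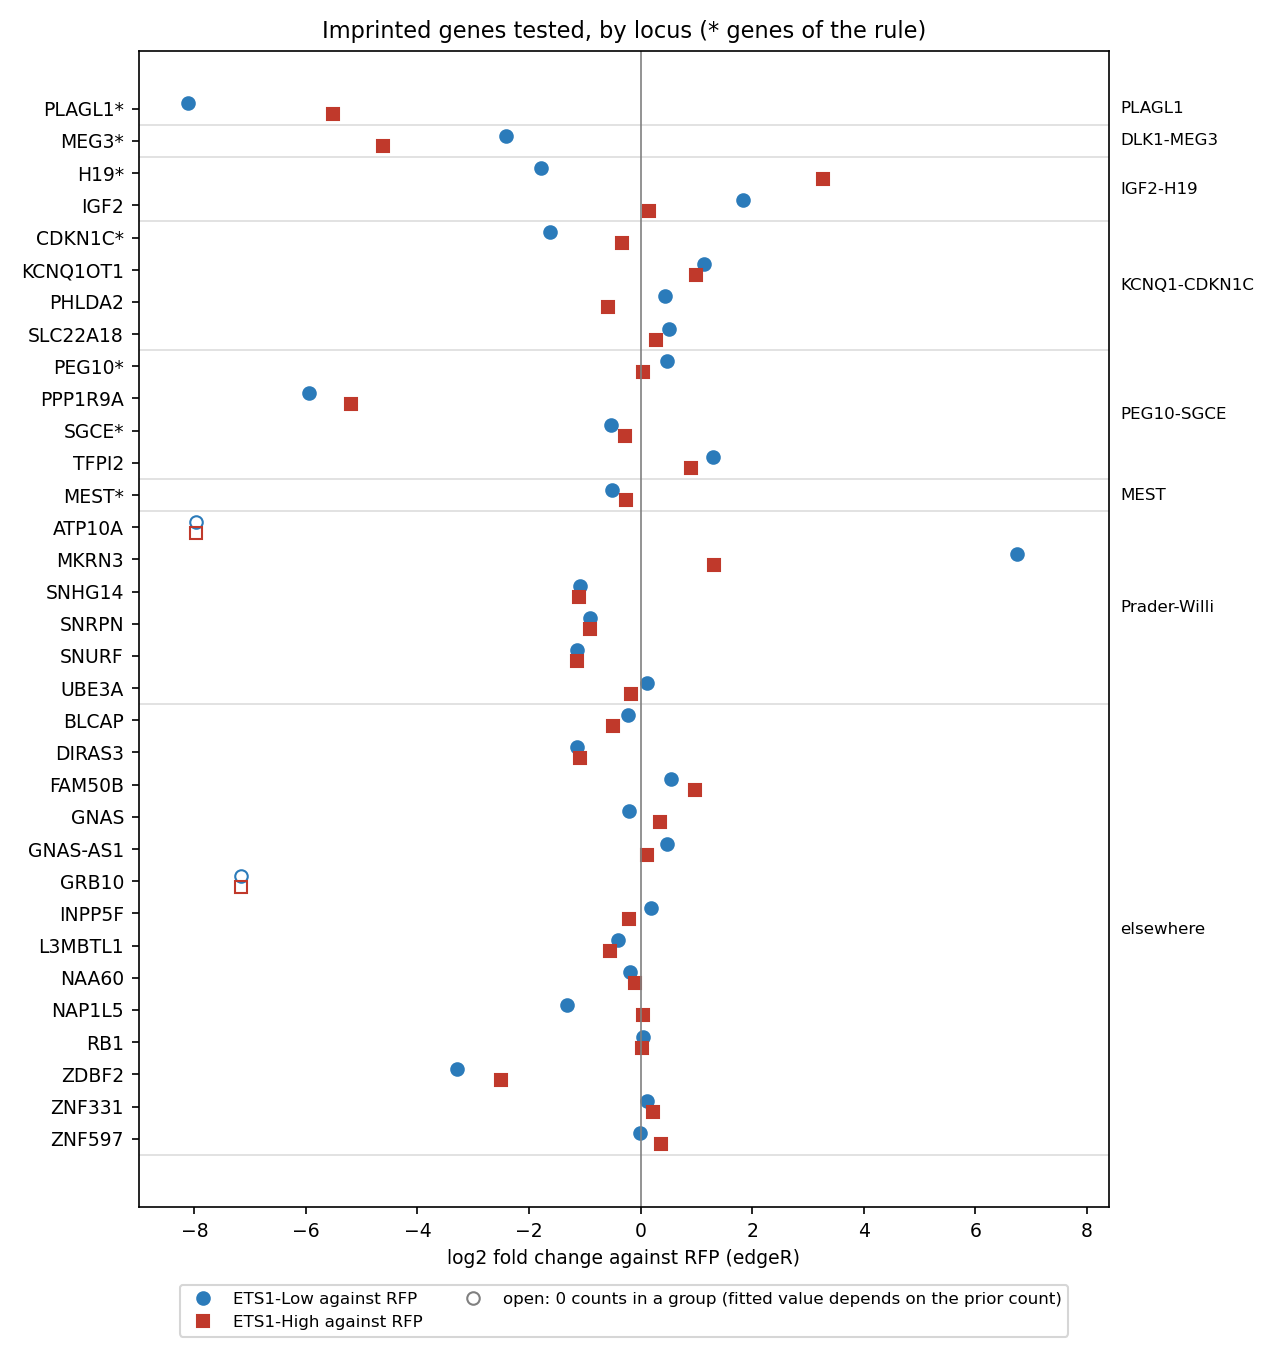
Log2 fold change versus RFP (edgeR) of the 33 tested imprinted genes, by locus; circles are ETS1-Low and squares ETS1-High, open where a group had 0 counts, and asterisks mark the genes of the set. PLAGL1, MEG3 and PPP1R9A lie far to the left in both groups, MKRN3 far to the right in ETS1-Low only, and genes of 1 locus often point in different directions.

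A wider list of 45 imprinted genes outside the set was used as context, of which 43 were in the tables and 26 passed the filter. In ETS1-High versus RFP, 7 rose and 14 fell, with a median log2 fold change of -0.13 against -0.01 over all genes tested. In ETS1-Low versus RFP, 10 rose and 13 fell (median -0.10 against 0.01), and in ETS1-High versus ETS1-Low 7 rose and 8 fell (median -0.02 against 0.00). The 3 comparisons thus called 21, 23 and 15 of the 26, where 74.2%, 74.1% and 59.2% of all genes were called. The 26 include IGF2 and MKRN3, which passed the filter only through ETS1-Low, and ATP10A, GRB10 and PPP1R9A, which passed only through RFP. At least 2-fold, 1 of the 26 rose and 7 fell in ETS1-High versus RFP (9.64% and 11.4% of all genes tested did so). In ETS1-Low versus RFP 4 rose and 8 fell by that much (8.47% and 12.2%). Between the ETS1 groups 1 was higher and 3 were lower in ETS1-High (6.05% and 3.69%). Those that changed at least 2-fold outside the clusters above were GRB10, ZDBF2, DIRAS3 and NAP1L5. GRB10, an adaptor that restrains insulin and IGF signalling, had 25, 15 and 18 counts in RFP and 0 in the 6 ETS1 libraries, which is at least 5.51-fold lower for ETS1-Low and at least 5.75-fold lower for ETS1-High. ZDBF2 fell, with log2 fold changes of -3.30 and -2.51 for the lower and higher ETS1 level (edgeR adjusted p 2.84e-20 and 1.40e-17). DIRAS3, a growth-suppressing small GTPase, fell too, with -1.14 and -1.08 (edgeR adjusted p 3.33e-08 and 8.57e-08). NAP1L5, like CDKN1C, was lowest in ETS1-Low: it fell by 1.32 there (edgeR adjusted p 3.18e-12), and its value was 0.05 in ETS1-High (edgeR adjusted p 0.711). GRB10 and ATP10A were among the 39 genes tested (0.226%) that had 0 counts in the 6 ETS1 libraries and at least 10 in each RFP library, a limit chosen after the values were seen. Both passed the filter only through RFP, the group in which they were high. So did each of the 39, since their ETS1 libraries had 0 counts, and the share is a description only.

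Genes that keep or remove imprints were examined last. Of 14 listed, 11 were tested, and 6 rose and 4 fell in ETS1-High versus RFP, 4 rose and 4 fell in ETS1-Low versus RFP, and 5 rose and 5 fell between the ETS1 groups. Over all genes tested, 74.2%, 74.1% and 59.2% were called in these comparisons. ZFP57, the binder of the hexamer marked above, had at most 1 count in a library, and DPPA3 and DNMT3L had 0. Each of the 11 tested genes was on in every group by the rule above. Mean CPM for RFP, ETS1-Low and ETS1-High was 282, 408 and 373 for DNMT1, 408.1, 571.5 and 524.6 for TRIM28, and 61.8, 51.5 and 52.7 for ZNF445. DNMT1, TRIM28 and ZNF445 were named after their values were seen. DNMT3B, a de novo DNA methyltransferase, fell in steps from 21.7 ± 1.3 CPM under RFP to 16.7 ± 0.72 CPM under ETS1-Low and 10.4 ± 0.13 CPM under ETS1-High (SD, n = 3), with log2 fold changes of -0.38 and -1.06 versus RFP (edgeR adjusted p 7.20e-08 and 1.17e-21). SMCHD1, a chromatin protein that silences some imprinted clusters, rose by 0.81 and 1.02 (edgeR adjusted p 1.78e-27 and 5.58e-32). TET2 and TET3, which oxidise methylated cytosine, fell by log2 values of -0.59 and -0.57 in ETS1-Low and of -0.34 and -0.69 in ETS1-High. Whether these levels bear on the imprinted genes was not tested, and no methylation was measured.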

How the data were processed

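mRNA libraries (a stranded kit, per the labels' protocols) of 9 TC-32 samples, 3 per group, were sequenced, and groups were taken from the sample titles (L and H in the column names read as Low and High; 0 columns were left unmatched). The authors deposited expected counts per gene, estimates that are not all whole numbers (9.00% to 10.3% per library were not whole), and FPKM values; both tables are named RSEM, whose version is not given in the sources used here. The submitters' processing notes name cutadapt 4.4, STAR 2.7.3, featureCounts in Subread 2.0.3, limma 3.38.3 and GRCh38, without roles; the annotation and the use of strand in counting are not given in the sources used here.

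Expected counts were rounded and fitted with edgeR 4.0.16 (R 4.3.3; TMM, filterByExpr, robust quasi-likelihood, 1 fit of the 9 libraries by group), after the code was tested on simulated data. SE is the unshrunken log2 fold change over the root of F. Alternatives were DESeq2 1.42.0 (Wald test or size factors), upper-quartile factors, other filters, a replicate block, fits of only 2 groups, leaving out each library, and limma 3.58.1 on FPKM plus 1 or 0.1. Positions come from GENCODE v44 by gene identifier (99.2% of tested genes). The naming rule took the 10 genes, other imprinted genes of their clusters, those elsewhere changed at least 2-fold, regulators changed at least 1.5-fold and the 2 genes nearest in pattern (log2 of CPM plus 0.05) to each gene with an off and an on state. Neighbours were taken by position. The genes and lists were chosen with earlier results of these data known. Counts lack molecular identifiers, so intervals and the floor of 3 counts cover counting error only.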

Additional observations from a re-analysis of the deposited data

Results flagged for a closer look

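ETS1-High and ETS1-Low, the groups that carry the same construct, differed from each other in all 7 tested genes of the set by the edgeR test (adjusted p under 0.05). The log2 fold changes of ETS1-High versus ETS1-Low were 5.05 for H19, 2.61 for PLAGL1, 1.29 for CDKN1C, 0.26 for SGCE, 0.25 for MEST, -0.43 for PEG10 and -2.19 for MEG3. Among the other imprinted genes changed at least 2-fold, they were 1.37 for NAP1L5, -1.01 for PHLDA2, -1.69 for IGF2 and -5.43 for MKRN3. Over all genes tested, 59.2% were called in this comparison, and 9.74% were called with at least a 2-fold change. H19 passed the filter on low counts through ETS1-High, and IGF2 and MKRN3 only through ETS1-Low. In each case that was the group in which the gene was high.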

How the results depend on the processing

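Of the alternative values for the 7 tested genes in the 3 comparisons, 369 kept their direction and side of the threshold, 13 lost the call and 4 changed sign. The sign changes were those of PEG10 in ETS1-High versus RFP, which was not called: -0.02 with upper-quartile factors and -0.01 in each of the 3 FPKM fits. The lost calls were CDKN1C in ETS1-High versus RFP (6), H19 in ETS1-Low versus RFP (4) and PLAGL1 in ETS1-High versus ETS1-Low (3, all on FPKM). Without a filter on low counts, 9 genes of the set were tested and the genes called lower became 6 in ETS1-High and 7 in ETS1-Low versus RFP, the added gene being DLK1 (-4.52 in both, edgeR adjusted p 0.0234 and 0.0258, a fitted value that depends on the prior count since both ETS1 groups were at 0). In fits of only the 2 groups compared, H19 was not tested in ETS1-Low versus RFP, which left 6 tested and 5 lower. With at least 10 counts in every library, H19 and PLAGL1 were not tested, so 0 genes of the set were called higher in ETS1-High versus RFP and 3 in ETS1-High versus ETS1-Low. With a mean FPKM of at least 1, H19 was not tested: 0 and 3 genes of the set were called higher in these comparisons with a pseudocount of 1 or 0.1, and 13 of 18 other imprinted genes were called in each comparison versus RFP, in place of 21 and 23. With the on limit at 1 FPKM, 1 gene had an off and an on state. The replicate numbers did not pair the libraries (correlations of -0.027 to 0.024 for the same number and -0.05 to 0.035 for different numbers; 1 of 9 libraries correlated best with its own number), and with a replicate block 1 and 5 genes of the set were called higher and lower in ETS1-High versus RFP, 1 and 6 in ETS1-Low versus RFP and 5 and 2 in ETS1-High versus ETS1-Low, as without it. Depth limits DLK1, PEG3, NDN, HYMAI, MEG8 and CPA4, whose counts were below the filter.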
